A study of Mus musculus with 6 samples.

Results

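The genes described here are 9 of the 26835 genes measured in mouse hearts: 1500015O10Rik, Comp, Sost, Angptl7, Fmod, Chad, Cilp, Wif1 and Thbs4. The first 4 were selected on their low values in carfilzomib-treated hearts against vehicle, and the other 5 were added as related genes of tendon, cartilage or heart valve. All 9 exceeded the minimum of a mean of 1 FPKM (fragments scaled to transcript length and library size) over the 6 libraries, as did 10329 genes in all. For 5 of them (1500015O10Rik, Sost, Angptl7, Chad and Thbs4) the mean in carfilzomib-treated hearts was under 1 FPKM, so these passed through the other groups. Because the choice rests on carfilzomib against vehicle, that contrast is described below without a p-value.

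Hearts came from C57BL/6 mice with the genotype listed as wide type, aged 7 to 8 weeks and weighing about 20 g, in 3 groups of 2 libraries. Control mice were injected intraperitoneally with 10% DMSO, the vehicle. The CFZ group received carfilzomib, an irreversible proteasome inhibitor used against multiple myeloma, at 8 mg/kg. The CFZ_EA group received the same dose and electroacupuncture, a current passed through needles, at the forelimb point PC6. Days 0, 2, 4 and 6 are listed for every library without an event tied to each. The labels do not name the part of the heart taken. They also do not tie the 2 libraries of a group to different animals, and every p-value therefore reflects no more than library-to-library spread, which may be technical.

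Most of these genes encode proteins that are secreted into the extracellular matrix. Comp and Thbs4 belong to the thrombospondin family, which bridges collagen and cells. Fmod and Chad encode leucine-rich repeat proteins that bind collagen, and Cilp encodes a cartilage matrix protein that binds transforming growth factor beta and is also made by cardiac fibroblasts. Sost and Wif1 encode secreted Wnt inhibitors: sclerostin binds the co-receptors Lrp5 and Lrp6, and Wif1 binds the Wnt ligands. Angptl7 encodes a secreted angiopoietin-like protein. The gene 1500015O10Rik, named Ecrg4 in RefSeq, encodes the secreted peptide precursor augurin.

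The promoters of 1500015O10Rik, Sost and Angptl7, 3 of the 4 genes chosen for low values, are shown because these genes were low together. RefSeq windows on GRCm38.p6, from 250 bases before to 50 bases after the start of the gene, were matched for 8 of the 9 genes, all but Comp. The windows lie at chr1:43730352-43730651 (plus strand) for 1500015O10Rik, at chr11:101966966-101967265 (minus strand) for Sost and at chr4:148500413-148500712 (minus strand) for Angptl7. They are written 5′ to 3′, and capitals mark the E-box CANNTG, the site type read by basic helix-loop-helix factors such as scleraxis.
1500015O10Rik: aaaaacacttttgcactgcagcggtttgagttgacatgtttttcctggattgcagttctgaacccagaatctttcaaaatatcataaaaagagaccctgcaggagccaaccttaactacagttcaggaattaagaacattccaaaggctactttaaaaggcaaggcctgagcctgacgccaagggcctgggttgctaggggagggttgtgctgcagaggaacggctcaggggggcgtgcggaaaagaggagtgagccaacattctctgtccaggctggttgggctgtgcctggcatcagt
Sost: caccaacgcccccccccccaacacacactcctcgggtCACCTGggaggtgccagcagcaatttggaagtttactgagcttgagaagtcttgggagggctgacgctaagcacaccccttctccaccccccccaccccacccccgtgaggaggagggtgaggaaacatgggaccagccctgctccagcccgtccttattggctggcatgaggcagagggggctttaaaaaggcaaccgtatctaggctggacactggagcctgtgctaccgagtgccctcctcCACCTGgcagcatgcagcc
Angptl7: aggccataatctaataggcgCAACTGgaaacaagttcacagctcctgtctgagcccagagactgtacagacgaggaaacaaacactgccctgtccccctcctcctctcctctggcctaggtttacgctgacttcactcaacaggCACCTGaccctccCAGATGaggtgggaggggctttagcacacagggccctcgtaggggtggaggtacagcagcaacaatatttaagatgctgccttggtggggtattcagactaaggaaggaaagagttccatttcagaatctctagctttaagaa

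The E-box, whose 2 strands read alike, was present in 7 of the 8 windows and in 72.3% of all 32851 windows of that length. The window of 1500015O10Rik, the gene with the lowest CFZ level relative to control, held none of the 7 motifs searched. Sost had E-boxes starting at positions -213 and 32 from the gene start, and Angptl7 at -230, -106 and -93. On both strands, CAGAC, the SMAD-binding box, was in 3 windows (49.6% of all), and GGGCGG, the GC box, in 3 (35.7% of all). TATAAA was in 2 (13.6% of all), those of Chad at -28 and Wif1 at -232. The TCF/LEF motif CTTTGA (16% of all) and the SOX motifs ACAAAG (18.7%) and ACAATG (12.6%) were in 0 of the 8. These are matches of letters and show no bound site.

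Each library held 50013990 to 75742448 estimated counts. Control replicate 2 stood apart: its score was 41.12 on principal component 1 of log2 CPM (counts scaled to library size), which held 41.8% of the variance, against -16.14 to -1 for the other 5 libraries. Of the 9 genes, 6 were higher in control replicate 2 than in control replicate 1, and 3 (Angptl7, Fmod and Chad) were lower. In whole-tissue RNA, fewer cells of a type and less RNA per cell cannot be told apart.

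The names tendon and cartilage were checked against the defining markers of those cells. Of the tenocyte markers, Scx, which encodes scleraxis, measured 1.97 to 3.01 FPKM with overlapping groups. The tenocyte genes Tnmd, Mkx and Kera stayed at or under 0.155, 0.0147 and 0.0527 FPKM in every library and were at 0 in at least 1 of them. The chondrocyte genes Acan, Col2a1 and Col9a1 stayed at or under 0.0632, 0.0219 and 0.0649 FPKM, Cnmd measured 0.239 to 0.914 FPKM, and Matn3 and Snorc had no row. The markers therefore do not identify tenocytes or chondrocytes, and the genes are called here the 1500015O10Rik and Comp set.

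In CFZ hearts all 9 genes were lower than in control, and in CFZ_EA hearts all 9 were above CFZ, so that both CFZ libraries lay under the other 4 libraries for every gene. Over all genes tested, 8.29% had that pattern. Groups of CFZ and control without overlap and with CFZ lower occurred in 9 of 9, against 20.8% of all genes, and this count is fixed in part by how the genes were chosen. Summed over the 9 genes, FPKM was 26.6 and 36.5 in control, 8.27 and 5.43 in CFZ, and 26.2 and 25.9 in CFZ_EA. The median log2 fold change of CFZ against control was -1.98, against -0.00 over all genes. edgeR called 0.029% of all genes lower in CFZ, from which nothing is read for genes chosen on this contrast.

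**Figure D1:**
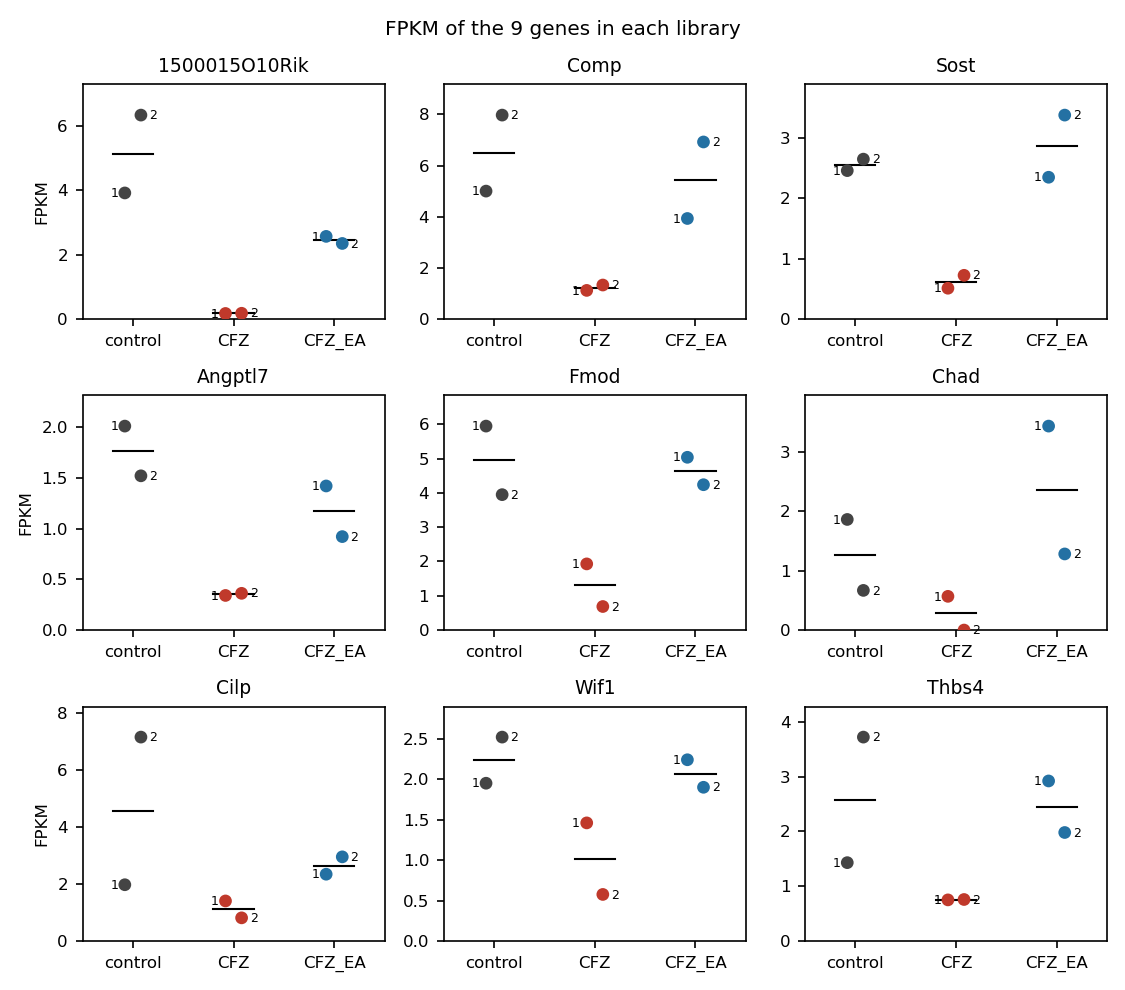
FPKM (vertical axis, starting at 0) of the 9 genes in control, CFZ and CFZ_EA hearts; each point is 1 library with its replicate number and each bar is the group mean of 2 libraries. Both CFZ libraries lie under the other 4 in every panel, and Chad is at 0 in CFZ replicate 2.

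The gene 1500015O10Rik (ENSMUSG00000026051, chromosome 1, 43730602 to 43742578, plus strand, GRCm38) measured 3.92 and 6.34 FPKM in control, 0.174 and 0.18 in CFZ, and 2.57 and 2.35 in CFZ_EA. The 3 groups did not overlap: CFZ was lowest, CFZ_EA intermediate and control highest. The mean fell from 5.13 ± 1.71 FPKM in control to 0.177 ± 0.0043 in CFZ (SD, n = 2 each), 3.45% of the control level, and was 2.46 ± 0.156 in CFZ_EA, 47.9% of it. Each CFZ value rests on 12 estimated counts, for which the exact 95% Poisson interval is 6.20 to 20.96, or 0.62 to 8.77 around 3 if 4 counts stand for 1 read. The fitted log2 fold change of CFZ against control was -4.68 ± 0.36 (SE), and leaving out control replicate 2 gave -4.38. Its promoter window, shown above, held 5 CpG dinucleotides and 50.0% G and C, against a median of 52.7% over all windows.

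Comp (ENSMUSG00000031849, chromosome 8, 70373558 to 70382066, plus strand), the cartilage oligomeric matrix protein gene, had the highest mean of the 9, 4.38 FPKM over the 6 libraries. It measured 5.00 and 7.97 FPKM in control, 1.12 and 1.33 in CFZ, and 3.93 and 6.92 in CFZ_EA. Control and CFZ_EA overlapped, and both lay above CFZ. Its log2 fold change of CFZ against control was -2.33 ± 0.35.

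Thbs4 (ENSMUSG00000021702, chromosome 13, 92751590 to 92794818, minus strand), a thrombospondin of tendon and muscle, measured 1.43 and 3.72 FPKM in control, 0.751 and 0.758 in CFZ, and 2.92 and 1.98 in CFZ_EA. The CFZ libraries were nearly equal, whereas the control libraries differed 2.6-fold. The log2 fold change of CFZ against control was -1.68 ± 0.44, and leaving out control replicate 2 gave -0.93.

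The other 3 thrombospondin genes, Thbs1, Thbs2 and Thbs3, had log2 fold changes of -2.14, -1.49 and -2.23 for CFZ against control, and edgeR called 0 of 3. All 3 were highest in control replicate 2, at 5.10, 10.9 and 7.04 FPKM, against 1.42, 2.00 and 1.38 FPKM in control replicate 1. Leaving out control replicate 2 gave -1.05, 0.09 and -0.73, so the sign of Thbs2 turned. Thbs1 measured 0.956 and 0.441 FPKM in CFZ and 1.82 and 1.34 in CFZ_EA, and Thbs3 measured 0.895 and 0.77 in CFZ and 1.31 and 1.45 in CFZ_EA. For these 2 of the 3 genes both CFZ libraries lay under the other 4 (8.29% of all genes tested), as for Comp and Thbs4. Thbs2 measured 2.54 and 1.76 FPKM in CFZ, and its groups overlapped.

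Sost (ENSMUSG00000001494, chromosome 11, 101962458 to 101967015, minus strand), the sclerostin gene, measured 2.46 and 2.65 FPKM in control, 0.511 and 0.725 in CFZ, and 2.35 and 3.38 in CFZ_EA. Control replicates differed 1.08-fold, the smallest control difference among the 9 genes. CFZ_EA spanned the control values and CFZ lay under both groups. The log2 fold change of CFZ against control was -1.98 ± 0.32, and leaving out control replicate 2 gave -1.99.

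Wif1 (ENSMUSG00000020218, chromosome 10, 121033960 to 121100650, plus strand) measured 1.95 and 2.52 FPKM in control, 1.46 and 0.576 in CFZ, and 2.24 and 1.9 in CFZ_EA. It kept the highest share of its control level in CFZ, 45.6%. Its log2 fold change was -1.09 ± 0.41. Leaving out CFZ replicate 2 gave -0.60 and leaving out CFZ replicate 1 gave -1.84, so the CFZ library used sets its size.

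Of 12 further secreted Wnt inhibitors, 5 passed the minimum level, and all 5 had CFZ under control without overlap (20.8% of all genes) and CFZ_EA above CFZ without overlap (15.1% of all genes). Their median log2 fold changes were -1.72 for CFZ against control and 0.86 for CFZ_EA against CFZ, and edgeR called 0 of 5 in either. Leaving out control replicate 2 gave a median of -0.69 for CFZ against control, with all 5 still under 0. Dkk3, a member of the dickkopf family that is also an atrial marker here, measured 16.5 and 9.67 FPKM in control, 1.60 and 0.541 in CFZ, and 6.40 and 26.4 in CFZ_EA. Sfrp2, a secreted frizzled-related protein gene, measured 2.09 and 36.9 FPKM in control, 1.31 and 1.3 in CFZ, and 2.01 and 2.69 in CFZ_EA, and CFZ against control gave -3.78 on the log2 scale, or -0.69 if control replicate 2 is left out. Sfrp1 and Sfrp5, of the same family, had log2 fold changes of -1.34 and -1.72 for CFZ against control, and leaving out control replicate 2 gave -0.40 and -2.23. Leaving out control replicate 1 gave -0.92 for Sfrp5.

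The tested Wnt receptor genes had a median nearer 0 than that of the inhibitors. Of 9 tested Wnt receptor genes 8 had lower and 1 higher fitted values in CFZ than in control, with a median log2 fold change of -0.23 and 0 called. Without control replicate 2, 6 of the 9 were lower, with a median of -0.21. With all libraries, 5 of the 9 had CFZ under control without overlap, against 20.8% of all genes, and 2 had CFZ_EA above CFZ without overlap, against 15.1%. The sclerostin receptor genes Lrp5 and Lrp6 measured 5.79 to 7.87 and 1 to 1.53 FPKM over the 6 libraries, and they had log2 fold changes of -0.09 and -0.23 for CFZ against control. Both CFZ libraries lay under the other 4 for Lrp6, at 1.14 and 1 FPKM, whereas the groups of Lrp5 overlapped. The receptor genes Fzd4, Fzd6 and Ryk had 0.07, -0.23 and -0.19. Fzd1, Fzd2, Fzd7 and Fzd8 had -0.65, -1.25, -0.61 and -0.09, so Fzd2 lay furthest from 0 of the 9. Without control replicate 2 these were -0.16, -0.57, -0.50 and 0.07. Fzd2 measured 2.01 and 4.87 FPKM in control, 1.49 and 1.24 in CFZ, and 1.79 and 2.23 in CFZ_EA. Of the Wnt feedback target list only the cyclin gene Ccnd1 passed the minimum level, 1 of 11, at 8.91 to 13.2 FPKM, with -0.09 for CFZ against control.

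Fmod (ENSMUSG00000041559, chromosome 1, 134037254 to 134048277, plus strand), which encodes fibromodulin, a regulator of collagen fibril assembly, measured 5.95 and 3.95 FPKM in control, 1.93 and 0.687 in CFZ, and 5.04 and 4.24 in CFZ_EA. Both CFZ_EA values lay between the control values. Its log2 fold change of CFZ against control was -1.9 ± 0.48, and the CFZ libraries differed 2.81-fold. Leaving out CFZ replicate 1 gave -2.76 and leaving out CFZ replicate 2 gave -1.37.

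Chad (ENSMUSG00000039084, chromosome 11, 94565047 to 94569127, plus strand), which encodes chondroadherin, measured 1.86 and 0.667 FPKM in control, 0.567 and 0 in CFZ, and 3.43 and 1.28 in CFZ_EA. The 0 is a count of 0, which allows up to 3 counts, or 0.0473 CPM, against 1.04 in CFZ replicate 1 and 3.43 and 1.24 in control. CFZ replicate 1 and control replicate 2 are thus close, and Chad was the least separated of the 9. The fitted log2 fold change of CFZ against control was -2.17 ± 1.38. Leaving out control replicate 1 gave -1.14 and leaving out CFZ replicate 2 gave -1.19. Chad lies within Acsf2, a gene on the opposite strand, with 0 exon bases shared, and whether counting used strand is not given in the sources used here.

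Among 15 further genes of the small leucine-rich proteoglycan list, 8 passed the minimum level, and all 8 had CFZ under control without overlap, against 20.8% of all genes. Their median log2 fold change was -0.91, nearer 0 than that of Fmod, and 0 were called. The collagen-binding proteoglycan genes Dcn, Bgn, Lum and Prelp had -0.46, -1.35, -1.39 and -0.53. Without control replicate 2 these were -0.23, -0.66, -0.68 and -0.44, the list's median was -0.67, and all 8 were still under 0. Dcn measured 43.4 and 63.8 FPKM in control, 41.5 and 33.2 in CFZ, and 49.2 and 44.0 in CFZ_EA. Against CFZ, 7 of the 8 were higher in CFZ_EA without overlap (15.1% of all genes), with a median of 0.61 and 0 called.

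Cilp (ENSMUSG00000042254, chromosome 9, 65265180 to 65280605, plus strand) measured 1.98 and 7.17 FPKM in control, 1.41 and 0.816 in CFZ, and 2.35 and 2.96 in CFZ_EA. The control libraries differed 3.62-fold, the largest control difference among the 9. The log2 fold change of CFZ against control was -1.96 ± 0.57, and leaving out control replicate 2 gave -0.86. Its relative Cilp2 measured 1.9 and 1.8 FPKM in control, 0.189 and 0.0814 in CFZ, and 0.647 and 4.77 in CFZ_EA, with log2 fold changes of -3.72 and 4.34 for CFZ against control and CFZ_EA against CFZ and adjusted p = 0.608 and 1 by edgeR. Of the 20 genes of the cartilage and valve list only Cilp2 and the matrilin gene Matn2 passed the minimum level. Matn2 had -0.80 for CFZ against control and -0.32 without control replicate 2.

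Angptl7 (ENSMUSG00000028989, chromosome 4, 148495183 to 148500460, minus strand) had the lowest mean of the 9, 1.10 FPKM, at percentile 2.8 of the tested genes. It measured 2.01 and 1.52 FPKM in control, 0.341 and 0.362 in CFZ, and 1.42 and 0.921 in CFZ_EA. The 3 groups did not overlap and had the order of 1500015O10Rik. Its log2 fold change of CFZ against control was -2.26 ± 0.35. The gene lies within Mtor, on the opposite strand, with 0 exon bases shared. Other angiopoietin-like genes lay nearer 0: Angptl2, Angptl4 and Angptl6, the 3 of 6 that passed the minimum level, had -0.15, 0.07 and 0.12, and their groups overlapped. Angptl7 was chosen for low values in this contrast and these genes were not, so nothing is read from that difference. Without control replicate 2 these were 0.03, -0.11 and 0.08.

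**Figure D2:**
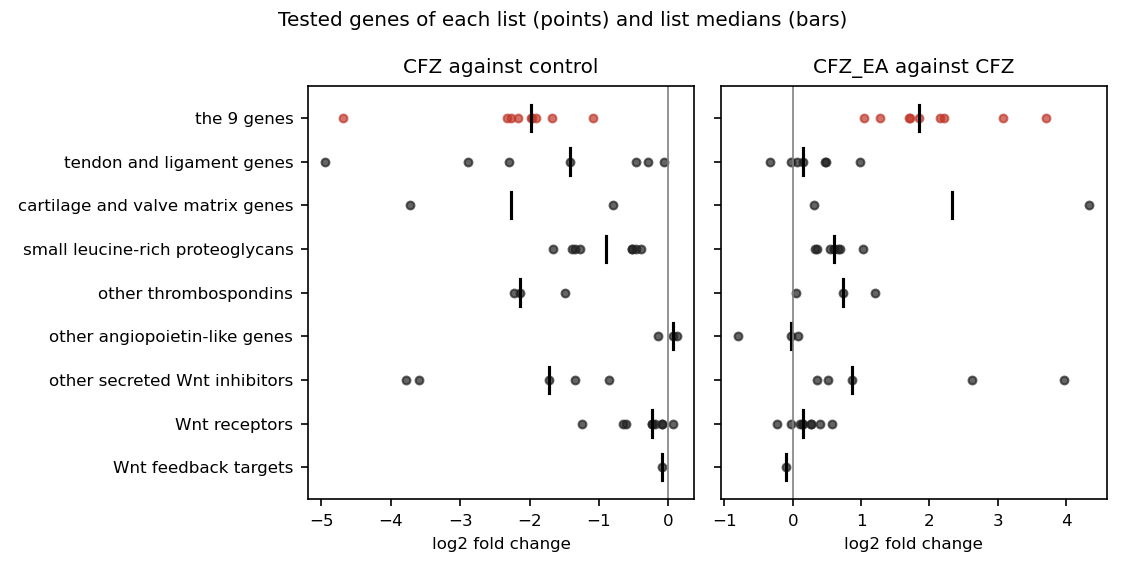
Log2 fold changes (horizontal axes) of CFZ against control and CFZ_EA against CFZ for the tested genes of the 9-gene set (red) and of 8 related lists (black); bars are medians. The 9 genes lie left of 0 on the first panel and right of 0 on the second, whereas the angiopoietin-like, Wnt receptor and Wnt target medians lie within 0.23 of 0. Of the 9 genes, 4 were chosen for low values in the first comparison.

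Of the list of 15 tendon and ligament genes 7 passed the minimum level. On the log2 scale all 7 had lower fitted values in CFZ than in control (median -1.41), and edgeR called 0. Control replicate 2 carried much of this: without it 5 of the 7 were lower and the median was -0.10. Tnc, which encodes tenascin C, measured 0.102 and 9.47 FPKM in control and 0.216 and 0.0717 in CFZ, and its -4.94 became 0.46 without that library. Lox, which encodes a collagen cross-linking enzyme, measured 0.361 and 5.11 FPKM in control and 0.352 and 0.33 in CFZ, and its -2.88 became -0.10. The transcription factor genes Scx and Egr1 had -0.07 and -0.29, and -0.01 and 0.10 without it. The matrix genes Col14a1 and Tnxb had -2.30 and -0.47, and -0.63 and -0.13 without it. Col14a1 measured 2.36 and 13.9 FPKM in the control libraries. Prg4, the remaining gene of the 7, was also lower in CFZ, with -1.41 and still -1.21 without control replicate 2. It measured 2.34 and 3.36 FPKM in control, 0.697 and 1.33 in CFZ, and 2.17 and 1.88 in CFZ_EA. Both CFZ libraries of Prg4 thus lay under those of control and CFZ_EA. For CFZ_EA against CFZ the list's median was 0.15, against 1.85 for the 9 genes, 0 were called, and the difference between the lists was not tested.

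Electroacupuncture under carfilzomib was examined as CFZ_EA against CFZ. This comparison shares the CFZ libraries on which 4 of the genes were chosen, so a higher value in CFZ_EA is partly fixed by the choice. All 9 genes were higher in CFZ_EA without overlap, against 15.1% of all genes, with a median log2 fold change of 1.85, against -0.01 over all genes. 1500015O10Rik had 3.70 ± 0.35 (13.9-fold on mean FPKM), Sost 2.21 ± 0.32 and Comp 2.15 ± 0.35, each given as a description. Chad, Fmod, Angptl7, Thbs4, Cilp and Wif1 had 3.08 ± 1.41, 1.85 ± 0.48, 1.72 ± 0.35, 1.70 ± 0.44, 1.28 ± 0.56 and 1.04 ± 0.41. Chad's value rests on the count of 0 in CFZ replicate 2: leaving that library out gave 2.10, and leaving out CFZ replicate 1 leaves a group at 0, for which no fold is given.

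edgeR called 0 of the 9 genes (0.0194% of all genes were called higher), and 7 had an unadjusted p under 0.05 (2.01% of all genes). DESeq2 called 6, namely 1500015O10Rik, Comp, Sost, Angptl7, Fmod and Thbs4 (0.375% of all genes). Because the CFZ libraries entered the choice of the genes, and 5 of the 9 passed the minimum level only through the groups where they are high, nothing is read from these counts or their shares. For Wif1, leaving out CFZ replicate 2 gave a log2 fold change of 0.56 and leaving out CFZ replicate 1 gave 1.79. Fmod had 1.33 and 2.71 in the same order.

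**Figure D3:**
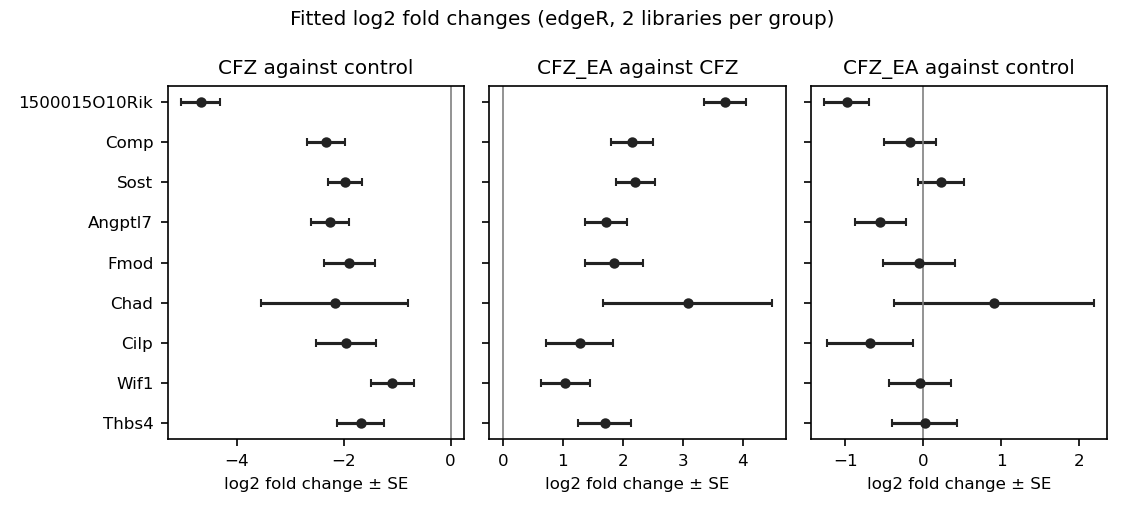
Fitted log2 fold changes (horizontal axes) with their standard errors for the 9 genes in the 3 comparisons, 2 libraries per group. Values for CFZ against control run from -4.68 to -1.09, those for CFZ_EA against CFZ from 1.04 to 3.70, and those for CFZ_EA against control from -0.98 to 0.91.

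CFZ_EA hearts were then compared with control, whose libraries also entered the contrast that chose the genes. The groups overlapped for 7 of the 9 genes, and 1500015O10Rik and Angptl7 were lower in CFZ_EA without overlap (2 of 9, against 22.1% of all genes). Their log2 fold changes were -0.98 ± 0.29 and -0.55 ± 0.33, both with edgeR adjusted p = 0.848. 1500015O10Rik alone had an unadjusted p under 0.05, against 3.66% of all genes lower at that level. The median log2 fold change was -0.05. edgeR called 0% of all genes higher and 0% lower. DESeq2 called 0 of the 9 and only 51 among all genes tested, so nothing is read from that 0.

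For the other 7 genes the values of CFZ_EA against control were 0.91 ± 1.28 for Chad, 0.23 ± 0.30 for Sost, 0.02 ± 0.42 for Thbs4, -0.04 ± 0.40 for Wif1, -0.05 ± 0.46 for Fmod, -0.17 ± 0.33 for Comp and -0.68 ± 0.55 for Cilp, with edgeR adjusted p from 0.877 to 0.996. These p-values do not show that the groups were alike. The sign turned with the control library left out for 5 genes. Leaving out control replicate 2 and then control replicate 1 gave 0.42 and -1.29 for Cilp, 0.77 and -0.47 for Thbs4, -0.36 and 0.37 for Fmod, 0.08 and -0.15 for Wif1, and 0.12 and -0.41 for Comp. Sost turned only with the CFZ_EA library left out, at -0.07 without CFZ_EA replicate 2 and 0.49 without CFZ_EA replicate 1. Comp, Thbs4, Fmod and Wif1 turned with the CFZ_EA library as well. Leaving out CFZ_EA replicate 1 and then CFZ_EA replicate 2 gave 0.20 and -0.66 for Comp and -0.26 and 0.26 for Thbs4. In the same order Fmod had -0.15 and 0.06, and Wif1 had -0.14 and 0.05. For 1500015O10Rik the values ran from -1.23 to -0.68 and for Angptl7 from -0.86 to -0.25, all under 0. Chad ran from 0.07 without CFZ_EA replicate 1 to 1.94 without control replicate 1.

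**Figure D4:**
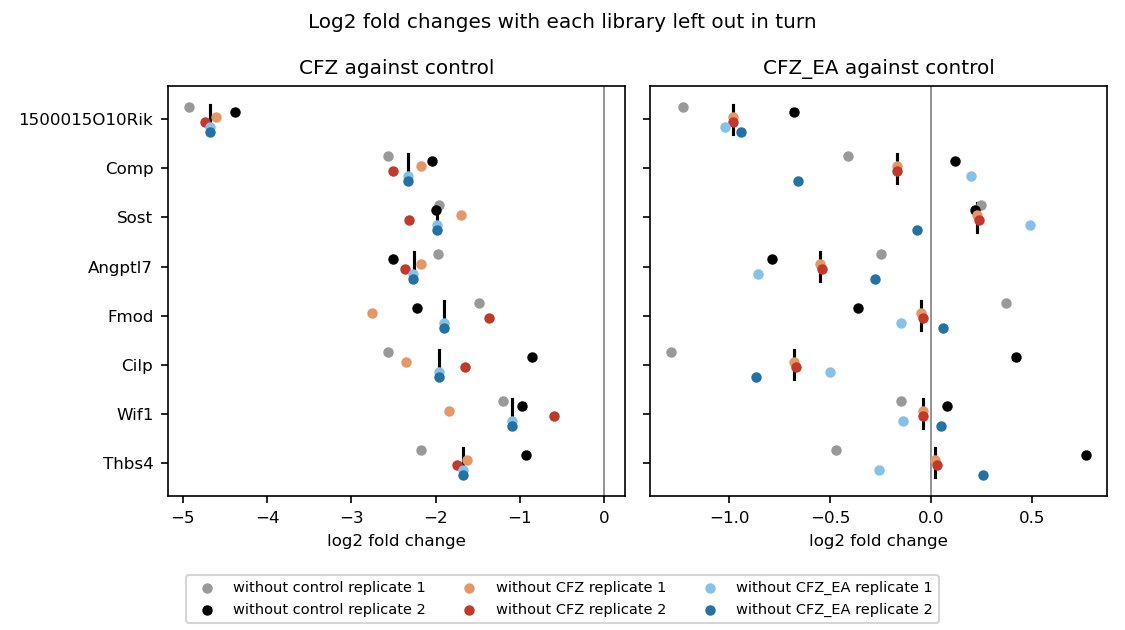
Log2 fold changes (horizontal axes) of 8 of the genes with each library left out in turn (colours) and with all 6 libraries (black bars); Chad is not drawn because 1 of its settings leaves a group at a count of 0. For CFZ against control every point lies under 0, whereas for CFZ_EA against control points of Comp, Sost, Fmod, Cilp, Wif1 and Thbs4 fall on both sides of 0.

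Among themselves the 9 genes varied together over the 6 libraries. Pearson's r of log2(CPM + 1) was above 0 in all 36 pairs, from 0.35 to 0.97 with a median of 0.81. This is a description only: 4 of the genes were chosen as low in the same 2 libraries. The other 5 were added with earlier results of these data known. Against the mean of the other 8, r was 0.94 for 1500015O10Rik, 0.91 for Comp and Fmod, 0.90 for Sost and Wif1, 0.89 for Angptl7, 0.87 for Thbs4, 0.79 for Cilp and 0.70 for Chad. Control replicate 2 held the highest value for 5 genes and control replicate 1 for 2.

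Genes outside the set were ranked by the same r over the 6 libraries to the mean profile of the 9. The nearest was a Sept2 model (ENSMUSG00000116048, r = 0.984), at 11.5 and 16.1 FPKM in control, 0 and 0 in CFZ, and 12.2 and 15.6 in CFZ_EA. This model lies on the same strand as another Sept2 model (ENSMUSG00000026276) and shares its whole span of 30741 bases with it. The other model measured 1.33 and 0.261 FPKM in control, 6.42 and 5.7 in CFZ, and 0.745 and 0.227 in CFZ_EA, high where the first is at 0. How reads were divided between the models is not given in the sources used here, so these values are uncertain. Leprotl1, Ncor1, Med1, Ptprs, Ago1, Tcf21 and Lsm12 followed with r from 0.959 to 0.980 but moved over narrower ranges. Tcf21, a transcription factor gene of cardiac fibroblasts, measured 4.89 and 5.34 FPKM in control, 3.79 and 3.15 in CFZ, and 4.39 and 4.40 in CFZ_EA.

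The genes nearest to single members included Cytl1, a cytokine-like gene known from cartilage, which followed Sost with r = 0.996. It measured 18.7 and 21.4 FPKM in control, 7.82 and 9.29 in CFZ, and 18.4 and 26.3 in CFZ_EA, so both CFZ libraries again lay under the other 4. Smad6, an inhibitory SMAD gene, was next to Comp behind Rbm10 (r = 0.983 and 0.988), and Trabd and Slc22a17 were nearest to 1500015O10Rik (r = 0.986 and 0.984). Uckl1 was the other neighbour of Sost (r = 0.991), and Tap1 and Acvr1 those of Angptl7 (r = 0.987 and 0.977).

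The summed markers of several cell types were also lowest in the CFZ libraries. Fibroblast markers summed to 786 and 1710 FPKM in control, 635 and 550 in CFZ, and 826 and 831 in CFZ_EA. Of these markers, 9 of 11 had both CFZ libraries under the other 4, a pattern that 8.29% of all genes tested had. Atrial cardiomyocyte markers summed to 2860 and 1620 FPKM in control, 342 and 209 in CFZ, and 973 and 5720 in CFZ_EA, with 7 of 9 in that pattern. Endocardial and valve endothelial markers summed to 26.6 and 43.0, 15.0 and 17.3, and 23.5 and 36.0 FPKM, with 3 of 6 (Npr3, Cdh11 and Plvap) in that pattern. In these 3 lists no marker was at 0 in any library. All 11 fibroblast markers passed the minimum level, as did 7 of the 9 atrial and 5 of the 6 endocardial markers. The atrial marker Fgf12 and Cdh11 had that pattern but did not pass, so they are not among the genes behind the 8.29%. The fibroblast list shares Dcn and Lum with the proteoglycan list and holds Tcf21.

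Epicardial and mesothelial markers summed to 22.8 and 56.2 FPKM in control, 4.77 and 4.17 in CFZ, and 5.07 and 13.7 in CFZ_EA, with 5 of 8 in that pattern. Pacemaker and conduction markers summed to 5.81 and 6.26, 5.46 and 3.90, and 9.94 and 6.44 FPKM, with 4 of 7. Over all genes tested 8.29% had that pattern, but only 6 of these 8 and 3 of these 7 markers passed the minimum level. The sums of the activated fibroblast, smooth muscle, tenocyte, chondrocyte and ventricular cardiomyocyte markers did not have both CFZ libraries lowest. The same held for the macrophage, adipocyte, Schwann cell, skeletal muscle, erythroid and lung epithelium markers. Ventricular markers summed to 14200 and 13300 FPKM in control, 15900 and 16900 in CFZ, and 15800 and 14500 in CFZ_EA. Both CFZ sums were thus highest, though those of CFZ replicate 1 and CFZ_EA replicate 1 were close. The part of atrial, valve, fibroblast or epicardial tissue in the low values of the 9 genes was not tested, and tissue sampling and treatment cannot be told apart where they move together.

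**Figure D5:**
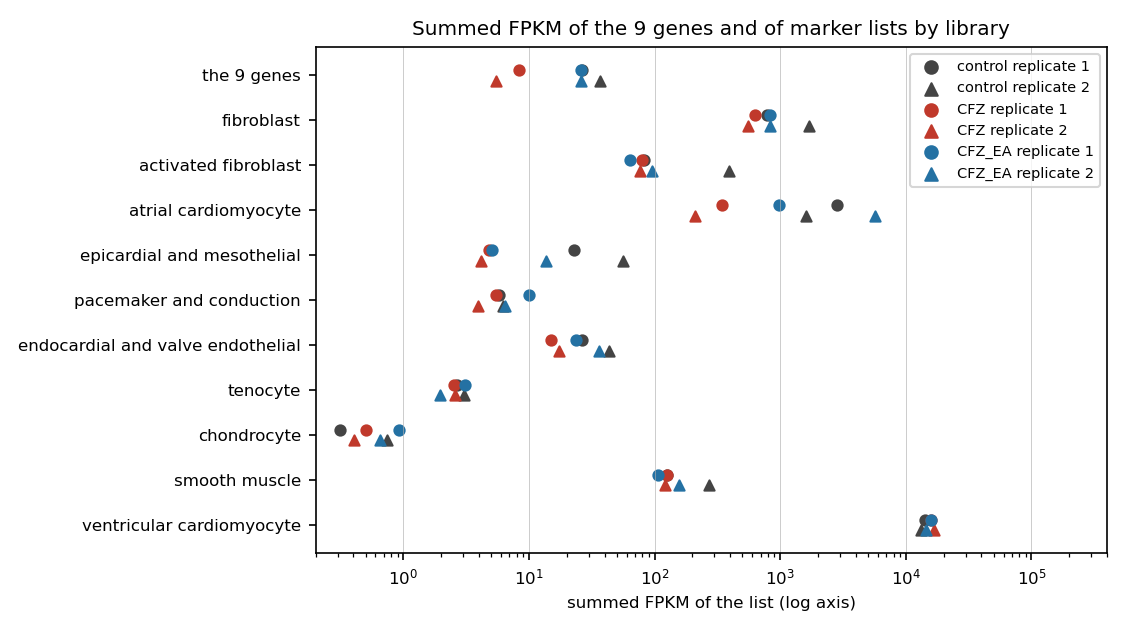
Summed FPKM (horizontal log axis) of the 9 genes and of 10 marker lists; colours are groups, circles replicate 1 and triangles replicate 2. The CFZ libraries are lowest for the 9 genes and for the fibroblast, atrial, epicardial, pacemaker and endocardial lists, and the chondrocyte list stays under 1 FPKM in all libraries.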

How the data were processed

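Poly(A) RNA of mouse hearts was sequenced in 6 libraries with a dUTP protocol, which marks strand, per the labels' protocols. Tools listed in the submitters' processing notes, with no role or order, are StringTie 1.3.4d, HISAT2 2.0.4 and cutadapt 1.9, and the build is GRCm38. For annotation release, filters and strand use in counting, the answer is not given in the sources used here. The authors deposited 1 table with an FPKM and a count column per library, per the file headers. The deposited counts are whole numbers but are treated as estimated counts, because 42.2% to 43.3% of counts from 1 to 20 were multiples of 4 (25% by chance), and what a count stands for is unknown. Totals were 50013990 to 75742448 per library, and 3 counts, the floor for a count of 0, were 0.0396 to 0.0600 CPM. Intervals cover counting error only.

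Genes with a mean of at least 1 FPKM (10329) were tested with edgeR 4.0.16 (quasi-likelihood, TMM factors, all 3 groups in 1 fit, 3 residual degrees of freedom, R 4.3.3), and Benjamini-Hochberg adjusted p under 0.05 over all genes was called. With 2 libraries a group, the smallest two-sided p of an exact permutation test is 0.333. Log2 fold changes are on the scale of TMM-scaled counts, with SE from the fit, and SD is over 2 libraries. The same steps were tested on simulated data. Alternatives were the filter, scaling, DESeq2 1.42.0, limma 3.58.1 on log2(FPKM + 1) and log2(FPKM + 0.1), the 2 compared groups alone, the replicate block and each library left out; 2 were added after seeing the data. The members, gene lists and markers were chosen with earlier results of these data known. Of each list the up to 4 tested genes with the highest mean FPKM are named by rule. Also named by rule are the 8 genes nearest to the mean profile and 2 nearest to each of 4 members. Lrp6, Fzd1, Fzd2, Fzd7, Fzd8, Tnc, Lox and Prg4 fall outside this rule and were chosen after their values were seen. Overlaps were read from GENCODE M21 on GRCm38, which held all 26835 gene IDs.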

Additional observations from a re-analysis of the deposited data

How the results depend on the processing

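The median log2 fold change of the 9 genes for CFZ against control was -1.98 and ran from -2.17 to -1.74 with 1 library left out, and for CFZ_EA against CFZ it was 1.85 and ran from 1.75 to 1.94. With limma on log2(FPKM + 1), which shrinks low genes by construction, these medians were -1.14 and 1.25. For CFZ_EA against control the median of -0.05 ran from -0.25 to 0.12 and changed sign. Genes called by edgeR numbered 3, 2 and 0 in the 3 comparisons (797, 319 and 530 at an unadjusted p under 0.05), and with DESeq2 138, 55 and 51. Leaving out single libraries gave 0 to 332 calls for CFZ against control (332 without control replicate 1, 0 without CFZ replicate 1 or either CFZ_EA replicate), 0 to 4 for CFZ_EA against CFZ (4 without CFZ replicate 2, 0 without CFZ replicate 1 or CFZ_EA replicate 2) and 0 to 231 for CFZ_EA against control (231 without control replicate 1). A lone library is there assumed to vary like the other groups. In the fit of the 2 compared groups 0 genes were called for CFZ against control. In alternatives added after seeing the data, leaving out both control replicate 2 and CFZ_EA replicate 2 gave 32 and 1 calls for CFZ and CFZ_EA against control, and counts divided by 4 gave 1 for CFZ against control and 1 for CFZ_EA against CFZ. The causes of these differences were not tested.

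Samples of 1 number share only that number: deviations of replicate 1 correlated at -0.06, -0.02 and 0.1 between groups over 10329 genes. With the replicate number as a block, 2, 2 and 0 genes were called, and the medians of the 9 genes were -2.01, 2.00 and -0.07. In the 2 comparisons with CFZ_EA, none of the 9 genes was called with the block. In the 2 comparisons with CFZ_EA, calls of single genes of the 9 changed with DESeq2 only, for 6 genes in CFZ_EA against CFZ. Depth limits the low values: 1500015O10Rik rests on 12 counts in each CFZ library and Chad on 0 in CFZ replicate 2.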
